A study of Mus musculus with 8 samples.

Results

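Monoamine synthesis, storage and breakdown were examined through 9 genes in the whole mouse brain, out of 24343 genes measured: *Th*, *Ddc*, *Dbh*, *Pnmt*, *Tph2*, *Gch1*, *Slc18a2*, *Maoa* and *Maob*. The genes were chosen by their symbols as members of the pathway, and all 9 were found. They and the lists of pathway genes used below were chosen with earlier results of these data known. RNA came from the whole brains of 3 C57BL/6NCrl mice aged 56–62 days, kept under a single condition, and was sequenced in 8 libraries, of which mice 1 and 2 gave 3 each and mouse 3 gave 2. The labels name no transgene or treatment, and the tissue is given by the study's methods. The sex of each mouse is not given here, although the study used both sexes, and what sets the libraries of a mouse apart is not stated. Expression is given as FPKM, a fragment count corrected for transcript length and for the depth of the library, so that levels of different genes can be compared per length. Libraries of a mouse are not separate animals, and errors are therefore SDs over the means of the 3 mice, whereas tests between the mice use the spread between libraries.

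Monoamine transmitters are made by small groups of neurons that project across the brain. In catecholamine neurons, tyrosine hydroxylase (*Th*) makes L-DOPA from tyrosine, aromatic L-amino acid decarboxylase (*Ddc*) makes dopamine from it, dopamine beta-hydroxylase (*Dbh*) makes noradrenaline and phenylethanolamine N-methyltransferase (*Pnmt*) makes adrenaline. In serotonin neurons, tryptophan hydroxylase 2 (*Tph2*) makes the first product and *Ddc* completes serotonin. Both hydroxylases need tetrahydrobiopterin, whose synthesis starts with GTP cyclohydrolase 1 (*Gch1*). The vesicular transporter VMAT2 (*Slc18a2*) loads monoamines into vesicles, and the mitochondrial monoamine oxidases A and B (*Maoa* and *Maob*) break them down.

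Mouse 3 stood apart from the other mice, and this touches every comparison between the mice. The libraries held between 1.31 and 2.02 gigabases on transcripts. In a limma F-test of the 3 mice over 13001 genes whose mean reached 1 FPKM, 3496 genes passed an adjusted p of 0.05 (26.9%), of which 1948 were highest in mouse 3 (15.0% of genes tested) and 1531 lowest (11.8%). Without library 2 of mouse 3, 372 of 12998 genes passed (2.86%), with 1.59% highest and 1.25% lowest in mouse 3. When each library was scaled to the same total (TPM), the median gene moved by −0.24 on the log2 scale in mouse 3 against the mean of mice 1 and 2 (0.02 with FPKM), and the split became 805 genes highest in mouse 3 (5.45%) and 4807 lowest (32.5%). Library deviations also followed transcript length, with Spearman's rho across genes of −0.36 and −0.57 in libraries 1 and 2 of mouse 3 and 0.18 to 0.50 in the others. Summed markers of oligodendrocytes (*Mbp* and *Mog*) were 2888 and 3558 FPKM in mouse 3 against 1287 to 1409 FPKM elsewhere. *Mbp* carried nearly all of this sum, and *Mog* alone had 51.7 and 63.0 FPKM in mouse 3 against 34.0 to 47.3 FPKM. Summed markers of astrocytes (*Aqp4*, *Gfap*, *Slc1a3* and *Aldh1l1*) were 415 and 440 against 264 to 286 FPKM. Those of neurons (*Snap25*, *Syt1* and *Rbfox3*) were 1152 and 1281 against 1352 to 1466 FPKM. *Snap25*, most of the neuron sum, had 915 and 1084 FPKM in mouse 3, the latter within the 1009 to 1119 FPKM of the other mice. *Syt1* (180 and 147 FPKM) and *Rbfox3* (57.1 and 49.9 FPKM) were lower in mouse 3 than in the other libraries, which had at least 267 and 71.3 FPKM. None of these brain markers was at 0 in any library. Marker values here and below are FPKM and were not rescaled to the same total. Total FPKM was 384885 and 409889 in mouse 3 against 295541 to 345572 in the other libraries. The part of these shifts in the results that follow was not tested.

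The enzymes of breakdown were the most abundant members and the last step of adrenaline synthesis the least. Mean levels were 13.3 ± 1.84 FPKM for *Maoa*, 12.1 ± 1.86 FPKM for *Maob*, 6.74 ± 0.680 FPKM for *Ddc*, 6.70 ± 0.545 FPKM for *Th*, 3.37 ± 0.352 FPKM for *Slc18a2*, 1.87 ± 1.17 FPKM for *Tph2*, 1.13 ± 0.0611 FPKM for *Dbh* and 0.667 ± 0.162 FPKM for *Gch1* (SD, n = 3 mice). *Pnmt* was listed at 0 in 5 of 8 libraries. *Maoa* lay at or above 80.4% of all genes in mean level and *Gch1* at or above 43.6%. The gaps between *Maob* and *Ddc* and between *Th* and *Slc18a2* were clear of all spread, with no overlap between any libraries of the neighbouring genes. *Ddc* and *Th* could not be ordered, since *Ddc* was higher in 1 of 3 mice and 3 of 8 libraries. *Slc18a2* exceeded *Tph2*, and *Tph2* exceeded *Dbh*, in 3 of 3 mice and 7 of 8 libraries, but the mouse means of these neighbours overlapped. *Dbh* exceeded *Gch1* in 7 of 8 libraries, with mouse means that did not overlap and libraries that did.

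**Figure D1:**
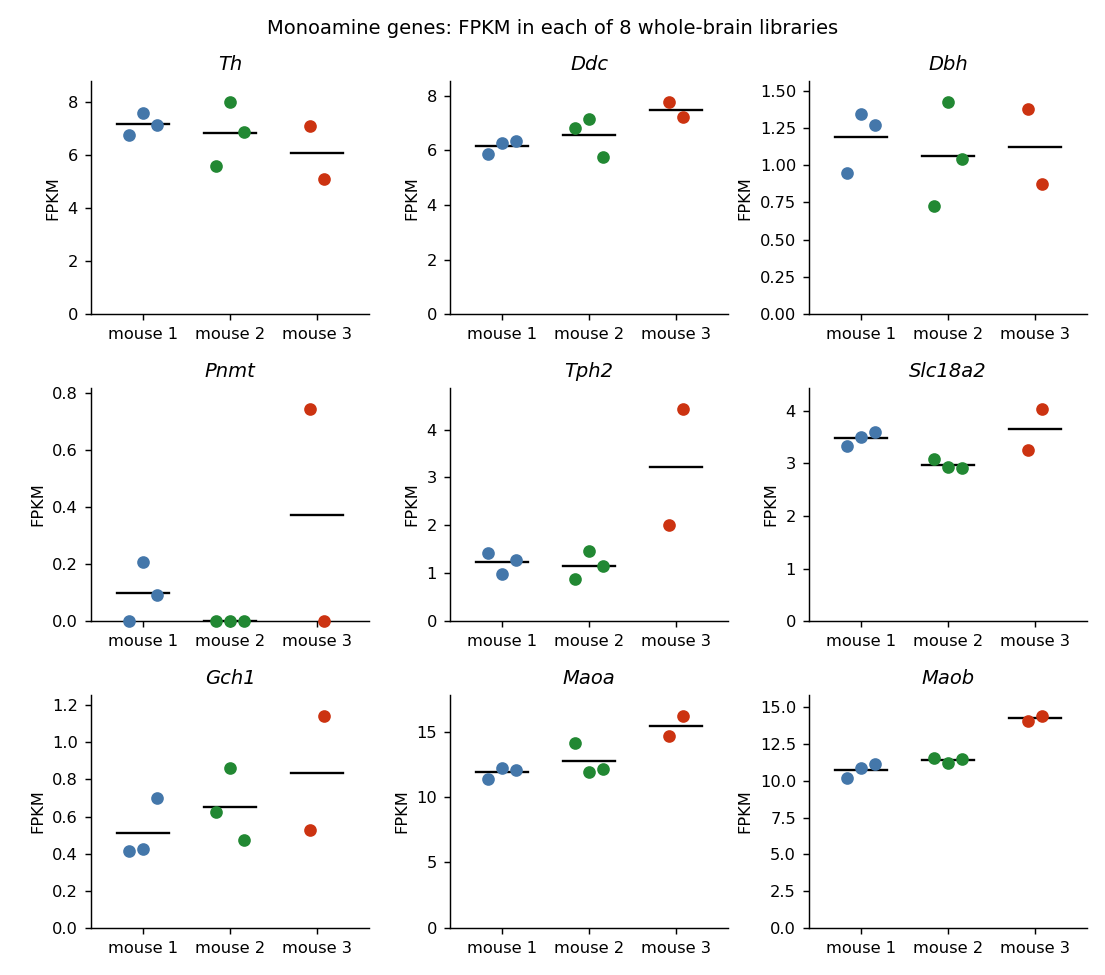
FPKM of the 9 monoamine genes on linear axes from 0. Points are libraries (3, 3 and 2 per mouse), coloured by mouse, and bars are mouse means. *Tph2* reached 4.43 FPKM in a library of mouse 3, against at most 2.00 FPKM in the other 7, while *Th*, *Dbh* and *Gch1* overlapped between all mice.

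Of the 9 genes, 7 reached a mean of 1 FPKM and were tested between the mice. *Tph2* and *Maob* differed (2 of 7, both highest in mouse 3), beside 26.9% of all genes tested and 15.0% called highest in mouse 3, and *Gch1* and *Pnmt* were below the minimum. The median range of mouse means on the log2(FPKM + 1) scale was 0.25 for these 7 genes and 0.28 for all genes tested. Without library 2 of mouse 3, 0 of the 7 passed in limma's test, beside 2.86% of all genes, and 1 had an unadjusted p under 0.05, beside 25.3% of all genes. With all libraries, 3 of 7 and 41.1% of all genes had an unadjusted p under 0.05. With the trend of each library on length removed, 3 of 7 passed, all highest in mouse 3, beside 22.2% of genes (11.6% highest and 10.4% lowest in mouse 3). With TPM, 8 of the 9 reached the minimum and 2 passed, *Tph2* highest and *Th* lowest in mouse 3, beside 38.3% of genes. Since this comparison is of individual animals, the results describe these 3 mice.

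**Figure D2:**
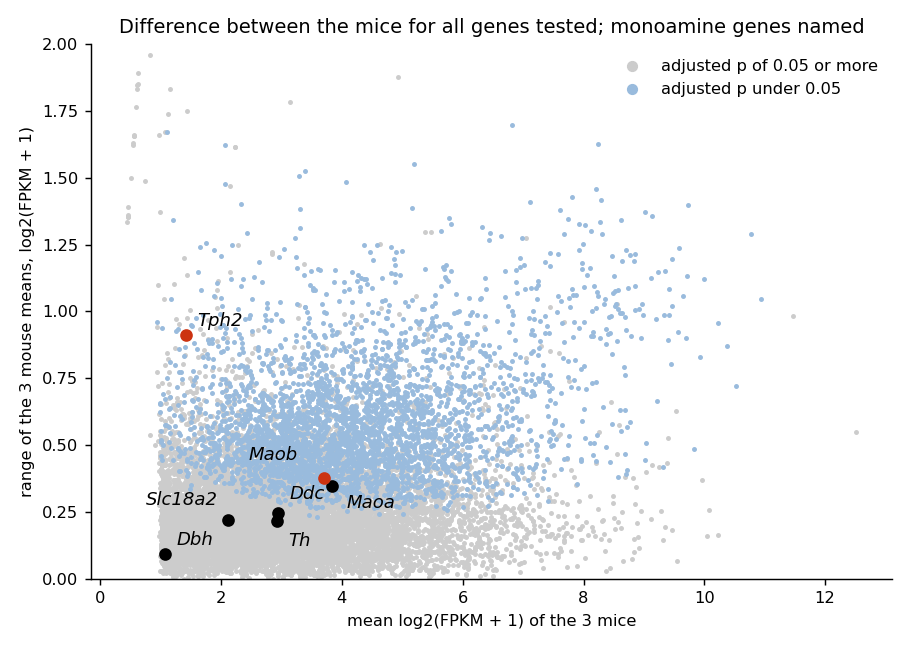
Range of the 3 mouse means against the mean of the 3 mice, both on the log2(FPKM + 1) scale, for the 13001 genes tested, of which 53 lie above the plotted range. Blue genes passed an adjusted p of 0.05, and named points are the 7 monoamine genes tested, in red where they passed. *Tph2* had a range of 0.91 and *Maob* of 0.38, and the other 5 lay between 0.09 and 0.35.

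Among the genes of catecholamine synthesis, *Th* and *Ddc* had like RNA levels, with *Dbh* far below. *Th*, the rate-limiting enzyme, lies on chromosome 7 from 142892776 to 142899966 on the minus strand of GRCm38 and has 13 exons. It had 6.77, 7.59 and 7.14 FPKM in the libraries of mouse 1, 5.60, 7.99 and 6.89 FPKM in those of mouse 2, and 7.10 and 5.09 FPKM in those of mouse 3. The lowest value was in mouse 3 and the highest in mouse 2, and the mice overlapped. Mouse means ranged over 0.22 on the log2 scale (limma, adjusted p = 0.527). With TPM, *Th* was lower in mouse 3 by a log2 difference of −0.48 from the mean of mice 1 and 2 (limma, adjusted p = 0.0484), against −0.18 with FPKM, and the sign turned to 0.03 without library 2 of mouse 3.

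*Dbh*, which marks noradrenaline and adrenaline neurons, lies on chromosome 2 from 27165507 to 27183204 on the plus strand and has 12 exons. Its levels were 0.947, 1.34 and 1.27 FPKM in mouse 1, 0.727, 1.42 and 1.04 FPKM in mouse 2, and 1.37 and 0.873 FPKM in mouse 3. Each mouse held libraries on both sides of 1 FPKM, so that the spread lay within mice rather than between them. The mice did not differ beyond this spread (limma, adjusted p = 0.890, range 0.09). *Dbh* stood at 0.169 ± 0.0144 of the level of *Th* (SD, n = 3 mice), between 0.130 and 0.194 in the libraries. Of all members, *Dbh* had the smallest coefficient of variation between mice, 5.43%.

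*Pnmt*, the enzyme of the adrenaline neurons of the medulla, lies on chromosome 11 from 98386632 to 98388097, with 3 exons. It was listed at 0 in library 1 of mouse 1, in the 3 libraries of mouse 2 and in library 2 of mouse 3. The other libraries had 0.207 FPKM (library 2 of mouse 1), 0.0900 FPKM (library 3 of mouse 1) and 0.744 FPKM (library 1 of mouse 3). These rest on little sequence. The highest came from 1420 read bases on a transcript of 888 bases, with deposited confidence bounds from 0.182 to 1.31 FPKM. Differences in *Pnmt* between the mice were not detectable at this depth.

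*Ddc*, the decarboxylase shared by catecholamine and serotonin neurons, was assigned almost wholly to 1 of its 2 annotated starts. The gene lies on the minus strand of chromosome 11, and the annotation gives it 2 starts, 7736 bases apart, for transcripts that share 1883 exonic bases and their whole coding sequence. NM_016672, which begins at 11890408, had 5.85, 6.28 and 6.35 FPKM in mouse 1, 6.83, 7.15 and 5.74 FPKM in mouse 2, and 7.76 and 7.22 FPKM in mouse 3. NM_001190448, which begins upstream at 11898144, had at most 3.53e-05 FPKM in any library, with upper confidence bounds between 0.0663 and 0.0984 FPKM. The downstream start thus carried nearly all the estimated expression in 8 of 8 libraries. The estimate rests on the first exons, which give 135 exonic bases found only in the upstream transcript and 71 found only in the downstream one. *Ddc* overlaps 1700042O10Rik on the other strand, which was listed at 0 in all libraries. As a whole, *Ddc* ranged over 0.25 on the log2 scale between mice (limma, adjusted p = 0.193), and both libraries of mouse 3 were above the other 6. This order did not hold with TPM, where mouse 3 lay at −0.06 on the log2 scale against the mean of mice 1 and 2, compared with 0.21 for FPKM.

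**Figure D3:**
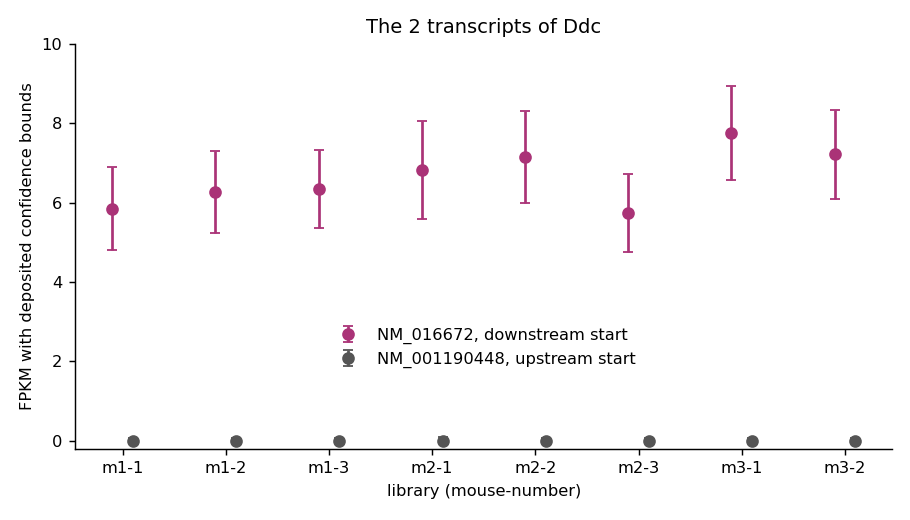
FPKM of the 2 transcripts of *Ddc* in each library, with the deposited lower and upper confidence bounds as bars. The transcript from the downstream start lay between 5.74 and 7.76 FPKM and the one from the upstream start at or near 0 in all 8 libraries.

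The 250 bases before each start are shown for *Ddc*, whose 2 starts differed in estimated expression, and for *Th* and *Tph2*, the rate-limiting enzymes of catecholamine and serotonin synthesis. They are RefSeq sequences on GRCm38.p6, all on the minus strand and read 5′ to 3′ towards the start. Capitals mark matches on either strand to TGACGTCA (the cyclic AMP response element), TATAAA (the TATA box), CCAAT (the CCAAT box), GGGCGG (the GC box), GTTAAT (a hepatocyte nuclear factor 1 half-site) or CACGTG (an E-box), none of which overlapped here.
Ddc downstream start, chr11:11890409-11890658: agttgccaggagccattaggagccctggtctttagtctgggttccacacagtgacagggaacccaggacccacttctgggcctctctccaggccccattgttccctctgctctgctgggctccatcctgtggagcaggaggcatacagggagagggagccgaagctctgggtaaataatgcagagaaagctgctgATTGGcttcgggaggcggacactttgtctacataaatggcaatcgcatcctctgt
Ddc upstream start, chr11:11898145-11898394: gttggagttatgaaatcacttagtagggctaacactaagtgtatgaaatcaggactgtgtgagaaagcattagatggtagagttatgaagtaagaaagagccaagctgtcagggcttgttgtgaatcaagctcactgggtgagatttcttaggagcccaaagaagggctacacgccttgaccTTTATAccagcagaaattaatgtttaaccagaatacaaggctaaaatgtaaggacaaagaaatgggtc
Th, chr7:142899996-142900245: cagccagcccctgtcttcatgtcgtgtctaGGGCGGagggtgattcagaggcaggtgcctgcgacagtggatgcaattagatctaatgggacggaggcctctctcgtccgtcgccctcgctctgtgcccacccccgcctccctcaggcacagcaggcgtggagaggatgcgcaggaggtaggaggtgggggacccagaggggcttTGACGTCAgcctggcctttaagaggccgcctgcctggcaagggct
Tph2, chr10:115185023-115185272: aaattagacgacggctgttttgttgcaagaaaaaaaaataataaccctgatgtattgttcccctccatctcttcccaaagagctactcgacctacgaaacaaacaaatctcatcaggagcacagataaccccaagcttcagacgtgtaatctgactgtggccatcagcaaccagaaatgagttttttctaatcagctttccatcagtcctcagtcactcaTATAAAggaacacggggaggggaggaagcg
The window of the downstream *Ddc* start held a reversed CCAAT box 55 to 51 bases before it. The window of the upstream start held a reversed TATA box 68 to 63 bases before that start. Their G and C contents were 56.0% and 40.8%, beside a median of 52.4% over 32851 windows. The *Th* window had the cyclic AMP response element 45 to 38 bases before the RefSeq start, a motif found in 1.55% of all windows, and a GC box (32.7%). *Tph2* had a TATA box 30 to 25 bases before its start, as did 12.4% of windows on either strand anywhere within the window, and CCAAT occurred in 33.8%. GTTAAT (6.43% of windows) and CACGTG (6.02%) were in none of the 4. A match is a description of letters and not of binding. Entries were found for 7 of the 9 genes, and not for *Pnmt* and *Maob*.

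Among the members tested, the largest difference between the mice was in the RNA of the serotonin synthesis gene *Tph2*. *Tph2*, the brain tryptophan hydroxylase, lies on chromosome 10 from 115078641 to 115185022 and has 11 exons. It had 1.43, 0.982 and 1.29 FPKM in mouse 1, 0.878, 1.46 and 1.15 FPKM in mouse 2, and 2.00 and 4.43 FPKM in mouse 3. Both libraries of mouse 3 were above the other 6, but they differed from each other by more than the whole range of those 6. The deposited bounds of library 2 of mouse 3, 3.72 to 5.14 FPKM, overlapped those of no other library, whereas the bounds of library 1, 1.51 to 2.49 FPKM, overlapped those of libraries from the other mice, which reached 1.88 FPKM. Mouse means ranged over 0.91 on the log2 scale (limma, adjusted p = 0.0355). The log2 difference of mouse 3 from the mean of mice 1 and 2 was 0.88 with FPKM and with TPM, each with a pseudocount of 1. This pseudocount shrinks differences more at the lower FPKM values, so the match does not show that scaling left the difference unchanged. With a pseudocount of 0.1 the difference with FPKM was 1.27. Without library 2 of mouse 3 the difference with FPKM and a pseudocount of 1 was 0.46 and no longer passed (limma, adjusted p = 0.267). With each library left out in turn, *Tph2* passed in 3 of 8 cases. Leaving out any library of mouse 1, or library 3 of mouse 2, gave adjusted p values in limma's test from 0.0553 to 0.0663.

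The serotonin transporter *Slc6a4*, which takes serotonin back into these neurons, had the same outlying library. It had 0.237, 0.561 and 0.400 FPKM in mouse 1, 0.487, 0.405 and 0.186 FPKM in mouse 2, and 0.589 and 1.20 FPKM in mouse 3, below the minimum for the test. *Fev*, a transcription factor of serotonin neurons, was listed at 0 in 2 libraries of mouse 2 and had 0.0474 to 0.270 FPKM in the others, with 0.169 and 0.220 FPKM in mouse 3. The sum of the cerebellar markers *Pcp2*, *Gabra6* and *Cbln3* was 273 FPKM in library 2 of mouse 3 against 138 to 173 FPKM in the other 7. The hindbrain markers *Hoxa5*, *Hoxb5*, *Hoxc4* and *Slc6a5* summed to 7.95 FPKM there against 5.34 to 7.51 FPKM, but only *Hoxb5* of these 4 was at its highest in that library. Their part in the level of *Tph2* was not tested. In bulk tissue, fewer cells of a type and less RNA per cell cannot be told apart.

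The balance of RNA between the rate-limiting enzymes differed with *Tph2*. *Th* exceeded *Tph2* in 8 of 8 libraries, and the ratio of their FPKM was 5.81 for mouse 1, 5.88 for mouse 2 and 1.90 for mouse 3. The mean ratio was 4.53 ± 2.28 (SD, n = 3 mice). The ratio was 3.55 in library 1 and 1.15 in library 2 of mouse 3, and at least 4.72 in the others.

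**Figure D4:**
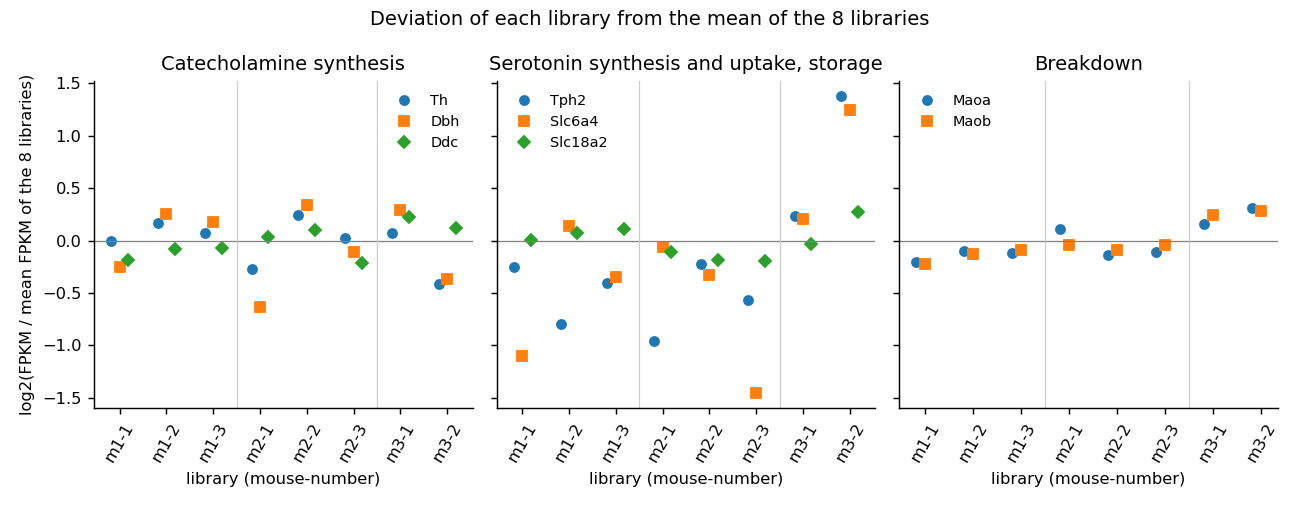
Deviation of each library from the mean of the 8 libraries, as log2 of the ratio of FPKM, for members of catecholamine synthesis, for serotonin synthesis, uptake and storage, and for breakdown. Each point is a library, and grey vertical lines separate the mice. *Tph2* and *Slc6a4* rise above the others in library 2 of mouse 3 (m3-2), where *Th* and *Dbh* are below their means.

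*Gch1*, which starts the synthesis of the tetrahydrobiopterin cofactor, had the lowest mean of the cofactor genes, below its regulator *Gchfr*, whose libraries overlapped it, and far below the rest. It lies on chromosome 14 from 47153895 to 47189402, on the minus strand, with 6 exons. Its libraries had 0.412, 0.424 and 0.701 FPKM in mouse 1, 0.622, 0.863 and 0.476 FPKM in mouse 2, and 0.529 and 1.14 FPKM in mouse 3. The mice overlapped, and the gene was not tested at the minimum of 1 FPKM. Without a minimum it did not pass (limma, adjusted p = 0.538).

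The later enzymes of the cofactor were far more abundant than *Gch1*, and all 5 that could be tested differed between the mice and were highest in mouse 3, beside 26.9% of all genes that differed and 15.0% that did so with mouse 3 highest. *Qdpr*, dihydropteridine reductase, which regenerates the cofactor, had 117, 117 and 221 FPKM in mice 1, 2 and 3. *Pts*, the second enzyme of synthesis, had 17.3, 17.7 and 35.2 FPKM, and *Spr*, which completes it, had 13.0, 10.8 and 15.2 FPKM. The dehydratases of recycling had mouse means of 8.19, 8.14 and 13.7 FPKM (*Pcbd1*) and 9.08, 7.80 and 16.9 FPKM (*Pcbd2*). Adjusted p in limma's test was 0.00605 for *Qdpr*, 0.00998 for *Pts*, 0.0178 for *Pcbd1*, 0.0358 for *Pcbd2* and 0.0373 for *Spr*. *Qdpr* and *Pts* kept their calls with TPM and also once the length trend was taken out. With TPM, *Pcbd2* also passed (limma, adjusted p = 0.0468), whereas *Pcbd1* and *Spr* did not (limma, adjusted p = 0.0851 and 0.154). With TPM, 3 of 6 cofactor genes tested thus passed, all highest in mouse 3, beside 38.3% of all genes and 5.45% called highest in mouse 3. *Pcbd1*, *Pcbd2* and *Spr* lost theirs without the length trend (limma, adjusted p = 0.639, 0.446 and 0.460), and 0 passed in limma's test without library 2 of mouse 3, where 6 were tested and 4 had an unadjusted p under 0.05, beside 2.86% and 25.3% of all genes. The log2 differences of mouse 3 from the mean of the other mice were then 0.73 for *Qdpr*, 0.65 for *Pts*, 0.65 for *Pcbd1*, 0.85 for *Pcbd2* and 0.29 for *Spr*, against 0.90, 0.94, 0.69, 0.96 and 0.34 with all libraries. With each library left out in turn, *Pcbd2* passed in 2 of 8 cases and *Spr* in 3 of 8. *Gchfr*, the feedback regulator of GTP cyclohydrolase, had 0.816 ± 0.493 FPKM (SD, n = 3 mice) and was listed at 0 in library 2 of mouse 1. In FPKM, the oligodendrocyte and astrocyte markers given above were also higher in mouse 3. Their part in the levels of the cofactor genes was not tested.

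The difference between the mice in the vesicular transporter did not pass the test. *Slc18a2* lies on chromosome 19 from 59260878 to 59296012, on the plus strand, with 16 exons. It had 3.34, 3.51 and 3.60 FPKM in mouse 1, 3.08, 2.93 and 2.90 FPKM in mouse 2, and 3.26 and 4.04 FPKM in mouse 3. The libraries of mouse 2 were the lowest 3 and the highest was library 2 of mouse 3, but the gene did not pass (limma, adjusted p = 0.195, range 0.22). *Slc18a1*, the transporter of endocrine cells, was at 0.115 ± 0.0432 FPKM (SD, n = 3 mice).

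The uptake transporters of the plasma membrane gave 0 calls of 2 tested in limma's test, with 0 at an unadjusted p under 0.05, beside 26.9% and 41.1% of all genes, and so few genes tested carry little weight. *Slc6a3*, the dopamine transporter, had 3.10 ± 0.329 FPKM, and its libraries lay between 2.52 and 4.18 FPKM (limma, adjusted p = 0.566). *Slc29a4*, the low-affinity plasma membrane monoamine transporter, was the highest of the 5 at 5.45 ± 0.533 FPKM (limma, adjusted p = 0.366). Below 1 FPKM were *Slc22a3*, organic cation transporter 3, at 0.630 ± 0.0379 FPKM, *Slc6a4* at 0.552 ± 0.299 FPKM, and *Slc6a2*, the noradrenaline transporter, at 0.467 ± 0.0116 FPKM (SD, n = 3 mice). *Slc6a2* lay between 0.382 and 0.537 FPKM over all 8 libraries.

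The monoamine oxidases were expressed at nearly equal levels, with *Maob* below *Maoa* in each of the 8 libraries. Monoamine oxidase A prefers serotonin and noradrenaline, whereas B is known from glia and serotonin neurons. Both genes lie on the X chromosome, *Maoa* from 16619698 to 16687812 on the plus strand and *Maob* from 16709281 to 16817366 on the minus strand, each with 15 exons. Their 3′ ends face each other across 21468 bases. *Maoa* had 11.4, 12.2 and 12.1 FPKM in mouse 1, 14.1, 11.9 and 12.2 FPKM in mouse 2, and 14.6 and 16.2 FPKM in mouse 3. *Maob* had 10.2, 10.9 and 11.2 FPKM in mouse 1, 11.5, 11.2 and 11.5 FPKM in mouse 2, and 14.1 and 14.4 FPKM in mouse 3. For both genes the libraries of mouse 3 were above all others, narrowly for *Maoa* and clearly for *Maob*. The ratio of *Maob* to *Maoa* was 0.909 ± 0.0144 (SD, n = 3 mice), from 0.819 to 0.963 in the libraries.

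*Maob* was higher in mouse 3 (limma, adjusted p = 0.0158, range 0.38 on the log2 scale), and *Maoa* missed the threshold (limma, adjusted p = 0.0517, range 0.35). The difference between the genes in this respect was not tested. With TPM, the log2 difference of mouse 3 from the mean of mice 1 and 2 fell to 0.06 for *Maob* and 0.03 for *Maoa*, and neither passed (limma, adjusted p = 0.574 and 0.740). Without library 2 of mouse 3, *Maob* kept a difference of 0.32 but did not pass (limma, adjusted p = 0.0891). After removal of the length trend both passed (limma, adjusted p = 0.0186 for *Maob* and 0.0316 for *Maoa*). In FPKM, the astrocyte markers were all higher in both libraries of mouse 3 than in the other 6. Their part in the level of *Maob* was not tested.

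Of 6 other enzymes that act on monoamines or their aldehydes, 4 differed between the mice, all highest in mouse 3, beside 26.9% of all genes that differed and 15.0% with mouse 3 highest. *Aldh1a1*, an aldehyde dehydrogenase of dopamine neurons and of other cells, had 38.8, 38.5 and 87.7 FPKM in mice 1, 2 and 3 (limma, adjusted p = 0.00359), and passed in 8 of 8 cases with a library left out. *Hnmt*, which methylates histamine, had 12.7, 13.6 and 19.5 FPKM (limma, adjusted p = 0.0290). *Aldh2*, the mitochondrial aldehyde dehydrogenase, had 25.9, 24.1 and 32.5 FPKM (limma, adjusted p = 0.0166). *Akr1a1*, an aldehyde reductase, was the most abundant at 178 ± 32.6 FPKM (SD, n = 3 mice; limma, adjusted p = 0.0489), and lost its call with the length trend removed (limma, adjusted p = 0.159). With a library left out, *Aldh2* passed in 7 of 8 cases, *Hnmt* in 4 of 8 and *Akr1a1* in 1 of 8. With the highest transcript of each gene, *Aldh2*, a sum of 2 transcripts, lost its call (limma, adjusted p = 0.0677). *Akr1a1* also lost its call in that setting (limma, adjusted p = 0.0595). With TPM, *Aldh1a1* alone of the 6 passed, beside 38.3% of all genes. The astrocyte and oligodendrocyte markers given above were also higher in mouse 3 in FPKM, and their part in these levels was not tested. The sulfotransferase *Sult1a1*, at 3.27 ± 0.538 FPKM (SD, n = 3 mice), did not pass (limma, adjusted p = 0.252). *Akr1b3*, aldose reductase, varied from 5.86 to 23.5 FPKM between libraries and did not pass (limma, adjusted p = 0.745).

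**Figure D5:**
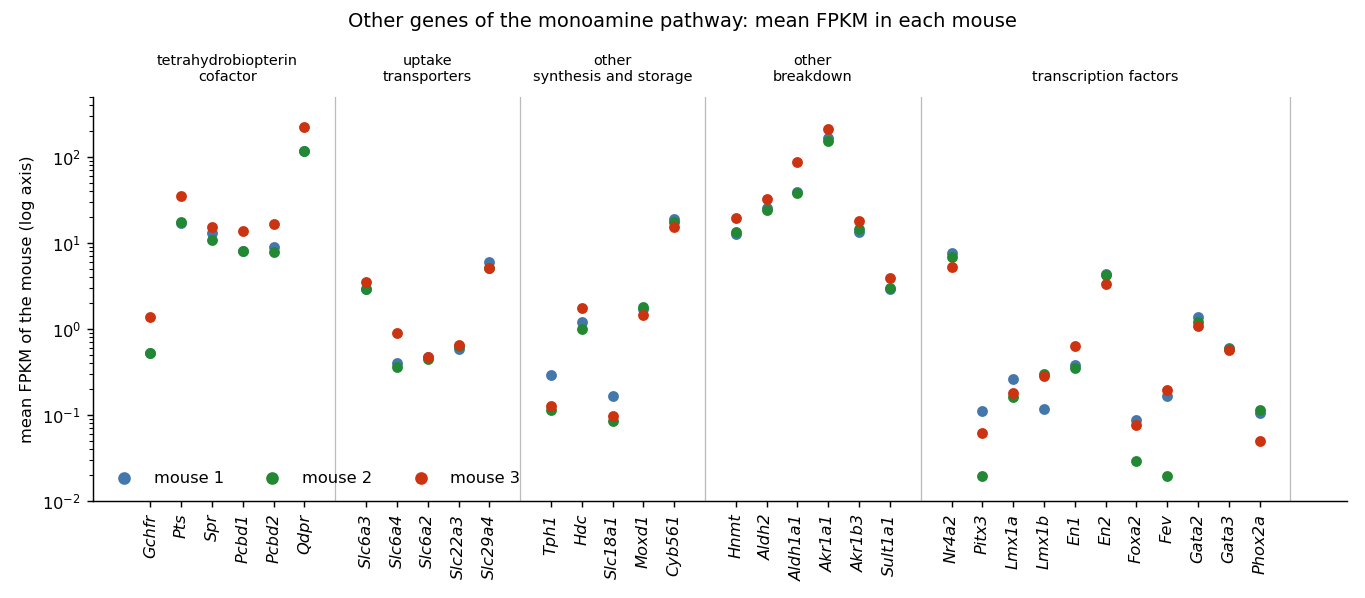
Mean FPKM in each mouse on a log axis for 33 other genes of the monoamine pathway, grouped by role. Points are mouse means. The cofactor genes *Pts*, *Pcbd1*, *Pcbd2* and *Qdpr* and the dehydrogenase *Aldh1a1* stand higher in mouse 3, whereas the uptake transporters other than *Slc6a4* lie close together.

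Among other synthesis and storage genes, *Hdc*, which makes histamine, had 1.21, 1.01 and 1.74 FPKM in mice 1, 2 and 3 (limma, adjusted p = 0.0466), a call lost when any of the 8 libraries was left out (limma, adjusted p from 0.0617 to 0.134). *Cyb561*, a vesicle cytochrome that supplies ascorbate for *Dbh*, had 17.4 ± 1.69 FPKM (SD, n = 3 mice; limma, adjusted p = 0.252). It was lower in mouse 3 with TPM (limma, adjusted p = 0.00650, log2 difference −0.52). *Moxd1*, a relative of *Dbh*, had 1.65 ± 0.185 FPKM (limma, adjusted p = 0.576). The peripheral and pineal hydroxylase *Tph1* was at 0.294, 0.114 and 0.127 FPKM in mice 1, 2 and 3. *Tph2* was thus above *Tph1* in every library.

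Transcription factors of monoamine neurons were mostly too low to test, with 3 of 11 at a mean of 1 FPKM or more. *Nr4a2*, which is needed for dopamine neurons and is also expressed in cortex, had 7.77, 6.92 and 5.22 FPKM in mice 1, 2 and 3 and was lower in mouse 3 (limma, adjusted p = 0.0172). This call rests on the sum of 2 transcripts and was lost with the higher transcript alone (limma, adjusted p = 0.561), without library 2 of mouse 3 (0.108) and without library 3 of mouse 1 (0.0536). *En2*, a midbrain and cerebellar factor, had 3.98 ± 0.583 FPKM (limma, adjusted p = 0.112) and *Gata2*, a factor of serotonin and other neurons, 1.23 ± 0.150 FPKM (limma, adjusted p = 0.347). With TPM, *En2* was lower in mouse 3 (limma, adjusted p = 0.00721). The other 8 lay between 0.0636 FPKM (*Pitx3*, a midbrain dopamine factor) and 0.590 FPKM (*Gata3*, a factor of serotonin neurons). Between these were *Foxa2*, *Lmx1a*, *Lmx1b* and *En1* of midbrain development, *Fev*, and the noradrenergic factor *Phox2a*. *En1* had 0.637 and 0.623 FPKM in mouse 3, above the 0.434 FPKM that the other 6 libraries reached.

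The members did not vary as a single group over the libraries. Pearson's r of log2(FPKM + 1) over the 8 libraries was 0.87 between *Th* and *Dbh* and 0.91 between *Maoa* and *Maob*, whereas it was −0.75 between *Th* and *Maoa* and −0.53 between *Th* and *Tph2*. *Ddc* had an r of −0.18 with *Th*. These are descriptions over libraries from 3 mice, which share depth and the trend with transcript length, and they carry no test. Searching the 13001 genes for the most similar profiles gave *Entpd3* (0.98) and *Tsc2* (0.97) for *Th*, *Angel2* (0.97) and *Cog7* (0.96) for *Dbh*, and *Arhgap12* (0.96) and *Ifit3* (0.95) for *Ddc*. For *Tph2* they were *Ccdc127* and *Med21* (both 0.99), and for *Slc18a2* they were *Zfp658* and *Slc16a12* (both 0.96). *Gm12191* (0.99) and *Zeb2os* (0.98) were closest to *Maoa*, and *Rftn2* and *Fam210b* (both 0.99) to *Maob*.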

How the data were processed

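Whole-brain RNA was prepared for bulk RNA-seq with Kapa mRNA HyperPrep kits. The authors deposited FPKM values with confidence bounds for each RefSeq transcript and library, and the deposited coverage is a signal of read depth per base. TopHat, Cufflinks and mm10 are named in the submitters' processing notes, and settings are not given in the sources used here. Deposited positions overlapped RefSeq loci on GRCm38.p6 for 99.8% of 23002 genes. Transcript values were summed per gene, averaged per mouse and then over the 3 mice. The number of reads behind a value is unknown, and bases are coverage multiplied by length.

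Mice were compared on log2(FPKM + 1) with limma 3.58.1 in R 4.3.3 (moderated F-test with a mean-variance trend, Benjamini-Hochberg over genes whose mean reached 1 FPKM, threshold 0.05), tested on simulated data. Alternatives were a pseudocount of 0.1, a minimum of 0.1 FPKM or none, TPM, removal of length trends, the highest transcript, library number as a block and leaving out each library. TPM here is FPKM rescaled to the same total, tested from 1 TPM, so that 14770 genes entered. Named genes were the 9 members, 33 pathway genes, the 2 genes most like each member and marker genes. A few listed genes are not reported here. Members and lists were chosen with earlier results of these data known. Nothing states that libraries of a mouse came from separate tissue, so that p-values measure a spread that may be technical.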

Additional observations from a re-analysis of the deposited data

Results flagged for a closer look

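In 5 of the 42 members and pathway genes looked at, 1 of the 8 libraries lay apart from the rest by Dixon's gap ratio. Chance alone passes this for about 1 in 20 genes only if the 8 values are independent and normal. Libraries that share a mouse, or are listed at 0, do not meet this. The share over all genes was not computed, so the count cannot be read as more than the background. Library 2 of mouse 3 was that library for 2 of the 5. *Tph2* had 4.43 FPKM in library 2 of mouse 3, with the next library at 2.00 FPKM. *Slc6a4* had 1.20 FPKM in the same library, with the next at 0.589 FPKM. *Pnmt* had 0.744 FPKM in library 1 of mouse 3, with the next at 0.207 FPKM and 5 libraries listed at 0. *Lmx1a* had 0.456 FPKM in library 1 of mouse 1, with the next at 0.259 FPKM. *Foxa2* had 0.219 FPKM in library 2 of mouse 1, with the next at 0.0766 FPKM and 2 libraries listed at 0. *Pnmt*, *Lmx1a* and *Foxa2* are at levels where the number of reads is small.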

How the results depend on the processing

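Of 7 members tested, 2 differed between the mice, and 1 of 9 did without a minimum level (2440 of 19291 of all genes). With 1 library left out 0 to 3 differed, beside 372 to 4131 of all genes. The lowest number was without library 2 of mouse 3, and 1 passed without any library of mouse 1 or without library 3 of mouse 2. Of the 33 pathway genes, 19 were tested and 11 differed (26.9% of all genes). The counts were 7 of 25 with TPM (38.3%), 6 of 19 with the length trend removed (22.2%) and 7 of 19 with the highest transcript (2719 of 12899 genes). With 1 library left out, 1 to 10 differed. The lowest count, 1, was without library 2 of mouse 3 (2.86% of all genes). It was 6 or 7 without library 1 of mouse 3 (3931 of 12997 genes), library 2 of mouse 2 (2649 of 12992) or any library of mouse 1. Of all genes tested, 3496 differed, against 5653 with TPM and 372 to 4131 with 1 library left out (372 without library 2 of mouse 3, and 2215, 2083 and 1969 without libraries 1, 2 and 3 of mouse 1). The cause of these shifts was not tested. The ratio of *Maob* to *Maoa* lay between 0.897 and 0.924 with 1 library left out. With the library number as a replicate block, 3385 of 13001 genes, 2 of 7 members and 10 of 19 pathway genes differed. *Hdc* lost its call (limma, adjusted p = 0.105). Deviations of same-numbered libraries correlated by 0.00276 to 0.107 over 7 pairs, 1 of them above 0.1, against −0.135 to 0.0645 for other pairs. Of 8 libraries, 5 correlated best with their own number. The 2 libraries of mouse 3 deviate from their mean in mirror image, so the check cannot decide what same-numbered libraries share. None of the members and pathway genes that differed changed direction under the alternatives run, which was not checked for other genes. Depth limits *Pnmt*, *Gch1* and the transcription factors below 1 FPKM.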

Other observations

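Markers of regions that hold monoamine neurons, and of glands near the brain, are given here as sums of FPKM. Olfactory bulb markers (*Doc2g*, *Eomes*, *Tbx21* and *Cdhr1*) summed to 18.6 and 19.0 FPKM in mouse 3 and to 13.7 to 16.8 FPKM in the other libraries. Of these, *Doc2g* was higher in mouse 3 (11.1 and 12.4 FPKM against at most 8.47 FPKM), whereas *Eomes* was lower (at most 1.37 FPKM against at least 1.61 FPKM). Hypothalamic peptides (*Pmch*, *Hcrt*, *Avp* and *Oxt*) summed to 54.4 and 49.1 FPKM in mouse 3 and to 22.6 to 42.1 FPKM elsewhere. *Pmch* was higher in both libraries of mouse 3, *Hcrt* in library 1, and *Avp* and *Oxt* lay within the range of the other mice. Midbrain dopamine markers (*Slc6a3*, *Pitx3* and *En1*) lay between 2.82 and 4.94 FPKM, raphe markers (*Slc6a4* and *Fev*) between 0.186 and 1.43 FPKM, and pineal markers (*Aanat*, *Tph1*, *Crx*, *Gngt1* and *Sag*) between 0.915 and 1.68 FPKM.

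Pituitary hormones (*Prl*, *Gh*, *Cga* and *Lhb*) summed to 0.443 to 1.52 FPKM. Choroid plexus markers (*Ttr*, *Folr1*, *Clic6* and *Kcne2*) summed to 317 to 563 FPKM, and globins (*Hba-a1*, *Hba-a2*, *Hbb-bs* and *Hbb-bt*, near-identical copies between which reads may be split) to 798 and 894 FPKM in mouse 3 against 528 to 657 FPKM. *Chga*, *Npy* and *Phox2a*, fixed as markers of adrenal medulla and sympathetic cells but also expressed in brain, summed to 119 to 157 FPKM. Microglial markers (*Cx3cr1*, *P2ry12* and *Tmem119*) summed to 28.3 to 36.7 FPKM and endothelial ones (*Cldn5*, *Pecam1* and *Flt1*) to 20.4 to 36.5 FPKM. Mural cell markers (*Pdgfrb*, *Kcnj8* and *Acta2*) summed to 12.1 to 16.4 FPKM. In FPKM, the microglial, endothelial and mural sums were each highest in library 2 of mouse 3, the library with the highest total FPKM. Of their members, *P2ry12*, *Tmem119*, *Cldn5*, *Kcnj8* and *Acta2* also peaked there. *Pdgfrb* went the opposite way and had its minimum there (3.24 FPKM, with 3.66 to 4.81 FPKM elsewhere). *Cx3cr1*, *Pecam1* and *Flt1* peaked in the other library of mouse 3.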
